A study of Mus musculus with 96 samples.

Results

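The mature products of the miR-221 and miR-222 hairpins were followed in cardiomyocytes, endothelial cells, fibroblasts and hematopoietic cells of the mouse heart before and after myocardial infarction. They were the 4 rows named mmu-miR-221-3p, mmu-miR-221-5p, mmu-miR-222-3p and mmu-miR-222-5p, chosen by name from the 1978 mature miRNAs listed in each small RNA-seq count table, of which 1561 had at least 1 count. The 96 libraries fell into 24 groups of 4, made from 4 cell types at 6 time points.

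All mice were male C57Bl/6J animals aged 12 to 14 weeks. Infarction was induced by permanently tying off a branch of the left coronary artery, and hearts were taken on day 1 (D1), D3, D7, D14 and D28. D0 stands for mice without an infarction. Cardiomyocytes (CM) were enriched by low-speed centrifugation, hematopoietic cells (HC) by anti-CD45 beads, endothelial cells (EC) by anti-CD144 beads from the cells that the CD45 beads left behind, and fibroblasts (FB) as the cells, mainly DDR2-positive, that stuck to an uncoated dish within 40 minutes. Per the study's methods the cell types of a day came from the same animals, so a comparison between cell types treats as independent libraries that share mice. Each library was a pool of 3 mice (2 where a sample was missing), so no value belongs to a single animal, and the p-values measure the spread between these pools. The study's methods call the pools biological replicates in one place and technical replicates in another. RNA input and PCR cycles were set by cell type, at 500 ng and 14 cycles for CM, 50 ng and 16 cycles for EC, and 150 ng and 15 cycles for FB and HC. A difference between cell types therefore cannot be told apart from a difference in input and cycles, except between FB and HC, which shared both. Per the study's methods each cell type also had its own batches of library preparation. A difference between any pair of cell types, FB and HC included, thus cannot be told apart from one between batches.

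Total counts on mature miRNAs ranged from 3327351 to 24279105 in CM, from 525651 to 29037628 in EC, from 2217588 to 65588543 in FB and from 18286 to 29504666 in HC. The low end in HC was D0 replicate 3, which held 20 counts of miR-221-3p, 1 of miR-221-5p, 2 of miR-222-3p and 0 of miR-222-5p. The fitted changes of the arms against D0 in HC and the interaction terms are therefore given with and without it. Other HC values, such as the arm ratios, the ratio of the 3p arms and the hairpin rows, include it unless stated. Each summed marker list of an isolated cell type was highest in the type it marks, though single markers were not always so. The mural list (miR-143-3p and miR-145a-5p) marks none of the isolated types. Its median was 44440 CPM in EC, 25170 in FB, 17080 in CM and 9445 in HC. Mean miR-133a-3p at D0 was 391.5 CPM in CM and 1143 in EC. The summed cardiomyocyte list (miR-1a-3p, miR-133a-3p, miR-208a-3p, miR-208b-3p and miR-499-5p) took 311400 to 709000 CPM (counts scaled to the library's total on mature miRNAs) in CM libraries, the 2 endothelial arms of miR-126a took 103800 to 234300 CPM in EC, and the 3 fibroblast arms of miR-199a and miR-214 took 40650 to 88870 CPM in FB. The 4 leukocyte miRNAs (both arms of miR-142a, miR-223-3p and miR-150-5p) took 6819 to 25730 CPM in HC. The cell types were not pure by these lists, since the cardiomyocyte list also took 25980 to 132300 CPM in HC and 20920 to 162100 CPM in EC.

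A miRNA hairpin carries a 5p and a 3p arm. One arm is usually kept in the silencing complex and guides it to messenger RNAs that pair with its seed (bases 2 to 8), and the other is mostly degraded. miR-221 and miR-222 are made from neighbouring hairpins and are known as regulators of vessel growth. In endothelial cells they repress Kit, the receptor of stem cell factor, and restrain angiogenesis, whereas in vascular smooth muscle cells they repress the cell cycle inhibitor Cdkn1b and favour proliferation. In blood cell development they are known to fall as red cell precursors mature.

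The sequences are shown because the 3p arms share a seed and so can pair with overlapping sets of targets, while their other bases tell them apart in sequencing. In the RefSeq sequences (GRCm38.p6, given 5′ to 3′ as RNA, the seed in capitals) miR-221-3p lay at chrX:19146307-19146329, miR-222-3p at chrX:19146901-19146923 and miR-221-5p at chrX:19146344-19146369, all on the minus strand.
miR-221-3p: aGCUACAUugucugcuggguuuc
miR-222-3p: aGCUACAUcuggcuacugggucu
miR-221-5p: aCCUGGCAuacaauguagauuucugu

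Both 3p arms were 23 bases long, were equal up to the seed's end, first differed at base 9 and shared 11 positions counted from the 5′ end. miR-1928 carries the same seed and had 0 counts in all 96 libraries, and no other miRNA in RefSeq shared the seed of miR-221-5p. Over the 96 libraries miR-221-3p took 1145490 counts, miR-222-3p 209512 and miR-221-5p 101145. Neither the counts of these arms nor those of miR-222-5p equalled those of any other row.

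The hairpins are shown because the count tables also list them, and because the position of the arms matters for what those rows count. The Mir221 hairpin (95 bases, chrX:19146294-19146388) and the Mir222 hairpin (79 bases, chrX:19146893-19146971) lay 504 bases apart on the minus strand. In GENCODE M21 no other gene overlapped them, and the nearest was Gm14636, a processed transcript 10010 bases away. Capitals mark the mature arms that RefSeq places in each.
Mir221: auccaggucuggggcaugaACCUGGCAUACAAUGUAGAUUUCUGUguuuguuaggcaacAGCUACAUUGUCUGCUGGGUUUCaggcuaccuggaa
Mir222: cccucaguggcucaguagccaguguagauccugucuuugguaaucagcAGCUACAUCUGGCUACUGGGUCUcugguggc

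miR-221-3p was the main product in all 4 cell types. It made up 85.5% of the counts on the 4 arms in CM, 80.2% in EC, 73.8% in FB and 79.7% in HC, and ranked 77th, 84th, 74th and 57th among mature miRNAs by median CPM. miR-222-3p made up 8.46% in CM, 13.7% in EC, 19.0% in FB and 13.1% in HC. Median CPM of miR-221-3p over the 24 libraries of a cell type was 366.8 in CM, 460.4 in EC, 608.2 in FB and 2400 in HC, and that of miR-222-3p was 33.6, 75.3, 150.8 and 370.2 in the same order. miR-221-5p stood at 21.9, 32.9, 63.9 and 199.9 CPM and miR-222-5p at 0.50, 0.55, 0.70 and 5.50 CPM. All 4 arms had their highest median in HC. Counts were not divided by length, since a read covers a whole mature miRNA.

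**Figure D1:**
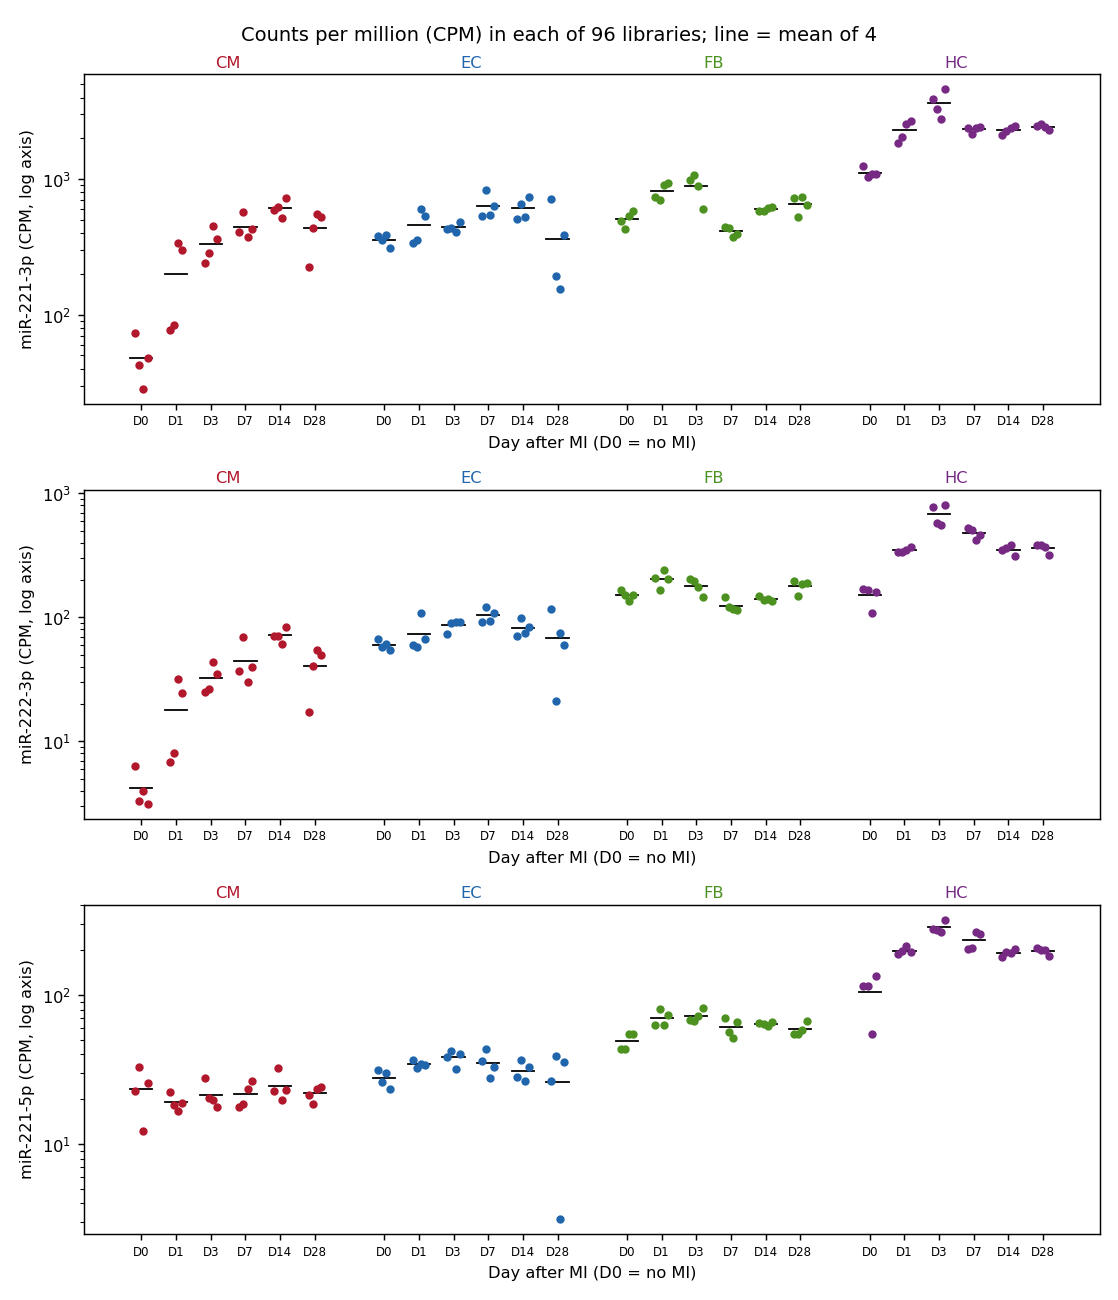
CPM of miR-221-3p, miR-222-3p and miR-221-5p (log axes) in each of the 96 libraries by cell type and day, with a line at the mean of the 4 libraries of a group. In CM the 3p arms climb from D0 (28.4 to 73.5 CPM of miR-221-3p) while miR-221-5p stays between 12.2 and 32.9 CPM, and in HC all 3 arms peak at D3. miR-222-5p is not drawn because several libraries are at 0.

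For the tests, counts were scaled by the trimmed mean of M-values (TMM), which sets each library by the bulk of its miRNAs and not by its total. Log2 fold changes below are on the TMM scale unless the plain library size is named. Adjusted p-values (Benjamini-Hochberg, over all miRNAs tested in that contrast) were computed in edgeR by its quasi-likelihood test, and a miRNA was called at an adjusted p under 0.05. The 5 contrasts of a cell type against D0 share their D0 libraries. The scaling matters most in CM, where the cardiomyocyte list took 603400 to 709000 CPM at D0 and 311400 to 419600 CPM at D14. miR-1a-3p alone set this fall, from a mean of 657400 to 353100 CPM, while the 4 others rose, such as miR-499-5p from 1200 to 11790 CPM. TMM factors ran from 0.289 to 0.357 at D0 and from 1.91 to 2.04 at D14 in CM, against 0.716 to 1.34 in EC, 0.78 to 1.25 in FB and 0.752 to 1.22 in HC.

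In CM both 3p arms were higher after infarction from D3 on, and miR-221-5p was lower from D1 on. At D0 the 4 libraries held 73.5, 42.5, 28.4 and 48.1 CPM of miR-221-3p, and at D1 they held 76.5, 84.2, 340 and 298 CPM. The D1 libraries thus fell into a pair near D0 and a pair well above it, and the same pairs had TMM factors of 0.49 and 0.54 and of 1.07 and 1.04. At D3 miR-221-3p stood at 239, 283, 447 and 359 CPM, at D7 at 408, 575, 375 and 426 CPM. At D14 the values were 597, 623, 520 and 728 CPM and at D28 they were 226, 438, 550 and 530 CPM. No library after infarction fell within the D0 range. The share of all miRNAs separated from D0 in this way was not computed, here or in the other cell types. With plain library size the median miRNA in CM also rose, by 1.42 to 2.99 (log2), so separation in CPM is not particular to this arm.

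miR-222-3p, the arm with the same seed, had the same shape at a lower level. It held 6.28, 3.33, 3.99 and 3.14 CPM at D0 (41 to 66 counts), then 6.8, 8.1, 31.9 and 24.4 at D1 and 24.9, 26.6, 44.1 and 35.2 at D3. It reached 37.2, 69.6, 30.2 and 39.9 CPM at D7 and 70.2, 70.6, 61 and 84.1 CPM at D14, and stood at 17.3, 40.7, 55 and 49.7 CPM at D28. D14 was highest in both arms, and the D0 and later libraries did not overlap.

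On the TMM scale miR-221-3p differed from D0 by 0.64 ± 0.26 (log2, SE) at D1 (adjusted p = 0.0742), 0.84 at D3 (0.00934), 0.91 on D7 (0.00411), 1.09 on D14 (0.00108) and 1.38 ± 0.27 at D28 (adjusted p = 0.000234). The values for miR-222-3p were 0.68 ± 0.29 (adjusted p = 0.0832), 1.02 (0.00479), 1.07 (0.0024), 1.50 (0.000122) and 1.45 ± 0.29 (0.000324). The rise therefore passed the test at D3, D7, D14 and D28 and missed it at D1, where it passed for both arms if D0 replicate 1, D1 replicate 1 or D1 replicate 2 was left out. Scaled by plain library size the rises were much larger, from 2.05 to 3.68 for miR-221-3p and from 2.09 to 4.10 for miR-222-3p. The median miRNA moved with the scaling too, by 0.20 to 0.44 with TMM and by 1.42 to 2.99 with library size. Relative to that median, miR-221-3p was higher by 0.41 to 1.13 with TMM and by 0.42 to 1.19 with library size, and miR-222-3p by 0.48 to 1.20 and by 0.60 to 1.29.

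miR-221-5p, the other arm of the same hairpin, did not follow. Its lowest and highest CM libraries held 12.2 and 32.9 CPM at D0, 16.8 and 22.4 at D1, 17.7 and 27.8 at D3, 17.9 and 26.5 at D7, 19.8 and 32.5 at D14 and 18.6 and 24 at D28, so that every day overlapped D0. On the TMM scale this flat level was a fall, of -1.37 ± 0.36 at D1 (adjusted p = 0.0105), -2.05 at D3 (8.93e-05), -2.43 on D7 (8.32e-06), -2.55 on D14 (5.09e-06) and -1.80 at D28 (0.000341). With plain library size the same 5 values lay between -0.30 and 0.07 and none was called. Both scalings placed it below the median miRNA, by -1.57 to -2.96 with TMM and by -1.72 to -2.92 with library size. Leaving out D0 replicate 2 ended the call at D1. miR-222-5p was counted 0 to 15 times per CM library and at most 3 times at D0, at the floor of 3 counts, and was called at no day on the TMM scale.

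In all, 13 of the 20 comparisons of an arm with D0 were called in CM, 8 higher and 5 lower. With plain library size 15 were called, all higher, at 5 days each for miR-221-3p, miR-222-3p and miR-222-5p (2.01 to 2.93 for the last, from at most 3 counts at D0). Background was high: 25% of the 484 miRNAs tested were called at D1 (13.6% higher, 11.4% lower), 55.2% at D3 (31.8% and 23.3%), 69% at D7 (38.8% and 30.2%), 67.1% at D14 (38% and 29.1%) and 54.3% at D28 (29.5% and 24.8%). A test over all 6 days together called 3 of the 4 arms in CM, where 73.8% of all miRNAs were called. Being called was thus common in this cell type. No contrast between later days called an arm in CM, with 3.1% of miRNAs called from D3 to D7 and 20.5% from D7 to D28.

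Markers of other cells moved in CM at the same days. With plain library size the median miRNA in CM rose by 1.42 to 2.99 (log2), so rises in CPM are not particular to these lists. The summed leukocyte list took 14.6 to 75.8 CPM in CM at D0, 161.3 to 297.9 CPM at D7 and 151.5 to 182.4 CPM at D14. On the TMM scale 3 of its 4 miRNAs were called higher at every day, and miR-223-3p was at 0 in 1 library. miR-150-5p made up most of the sum, with means of 29.7 CPM at D0, 171.4 at D7 and 130.1 at D14. At D0 its mean was 2372 CPM in EC and 2733 in HC, so it does not mark leukocytes alone. The fibroblast list took 36.5 to 113.6 CPM at D0 and 1358 to 2188 CPM at D14, with 3 of 3 higher from D3 on. The endothelial list took 4423 to 9789 CPM at D0 and 19280 to 27650 CPM at D14. On the TMM scale 1 of its 2 arms was called higher and 1 lower at D14. The summed mural list fell from 22680 to 36320 CPM at D0 to 15750 to 18620 CPM at D14, with 1 of 2 lower. Its members went opposite ways in mean CPM. miR-143-3p fell from 29540 to 14990 CPM, whereas miR-145a-5p rose from 395.8 to 1933 CPM. Their part in the rise of miR-221-3p and miR-222-3p was not tested. In bulk libraries, fewer cells of a type and less RNA per cell cannot be told apart.

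**Figure D2:**
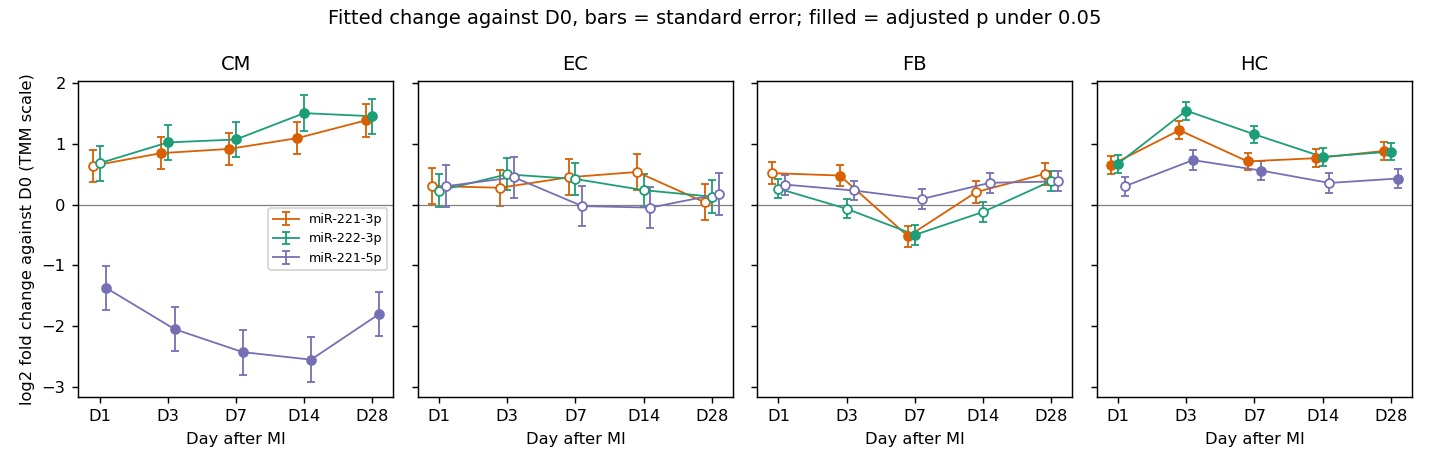
Fitted log2 fold change against D0 (TMM scale, bars of 1 standard error) of miR-221-3p, miR-222-3p and miR-221-5p by day in each cell type, with filled points at an adjusted p under 0.05. In CM the 3p arms lie above 0 and miR-221-5p lies between -1.37 and -2.55, in EC no point is filled, in FB the 3p arms dip at D7, and in HC all points are above 0 with the highest at D3.

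The split between the arms of miR-221 in CM does not rest on the scaling, since both are counted in the same library. Expressed as log2 of 5p over 3p counts, the ratio was -1.04 ± 0.55 (SD, n = 4) at D0, where the 4 libraries lay between -1.68 and -0.37. It fell to -3.07 ± 1.27 on day 1, to -3.94 ± 0.63 on day 3 and to -4.36 ± 0.46 by day 7, reached -4.66 ± 0.30 on day 14 and was -4.24 ± 0.56 on the last day. The D1 libraries lay on both sides of the gap, at -1.77 and -2.21 in replicates 1 and 2 and at -4.34 and -3.98 in replicates 3 and 4. Every later library had a lower ratio than any D0 library. At D0 the CM libraries held 196 to 465 counts of the 5p arm and 456 to 772 of the 3p arm. In the other cell types the 5p arm was a smaller share, with D0 means between -3.69 in EC and -3.35 in HC.

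A limma fit across the 99 hairpins with enough counts on both arms called the change over the 6 days for miR-221 in CM (adjusted p = 3.13e-05), as it did for 70.7% of those hairpins. Ordered from the most negative change against D0, miR-221 ranked 6th, 7th, 9th, 7th and 4th of 99 at D1, D3, D7, D14 and D28. The median hairpin changed by -0.22 to 0.11. In FB the arm ratio of miR-221 was also called (adjusted p = 0.0152, against 49.7% of 147 hairpins), with its highest mean at D7 (-2.76 ± 0.16) and -3.37 ± 0.10 at D0. In EC (adjusted p = 0.53, 40.4% of hairpins called) and in HC (adjusted p = 0.502, 15.8% called) it was not called. miR-222 had enough 5p counts for this fit in FB and HC only. It was called in FB (adjusted p = 0.0152), from -9.02 ± 0.80 at D0 to -7.27 ± 0.53 at D7, and was not called in HC (0.278). The FB libraries at D0 held 4, 0, 3 and 8 counts of miR-222-5p, and the FB call was lost with a pseudocount of 5 and not tested with a minimum of 50 counts.

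**Figure D3:**
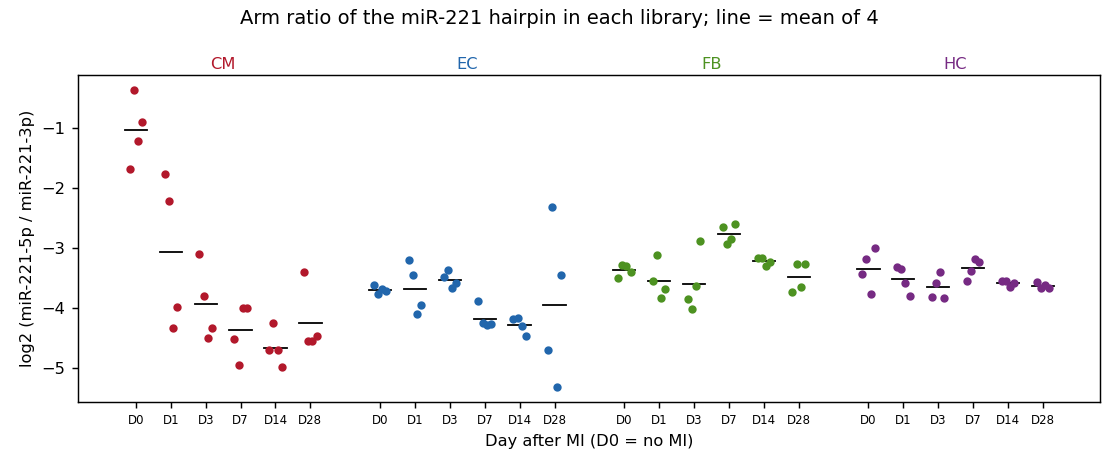
Log2 ratio of miR-221-5p to miR-221-3p counts in each library by cell type and day, with a line at the mean of 4. CM libraries at D0 lie between -1.68 and -0.37, above all libraries of the other cell types, and by D14 the CM mean has dropped to -4.66.

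The tables list the hairpins as well. The small RNA-seq pipeline aligns to the precursors those reads that found no match on a mature arm, and a hairpin row counts these alignments. These rows took a larger share in CM at D0 than later. For miR-221 the hairpin row held 59.9% ± 12.1 (SD, n = 4) of all alignments to the stem at D0 and 25.6% ± 1.96 at D14, and for miR-222 it held 90.4% ± 5.15 and 54.7% ± 2.29. In the other cell types the share for miR-221 lay between 9.47% and 33.6% in all libraries. For miR-222 the share was high there too, at 45.9% to 87.1% in EC, 54% to 71.6% in FB and 69% to 86.7% in HC. The arm counts, and the shares and ratios made from them, leave these alignments out. Reads could align to several hairpins, at 1.17 to 2.40 alignments per read, so the hairpin rows are less specific than the arms.

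On the TMM scale, what is counted turned the direction in CM. The hairpin row of miR-221 fell by 0.74 to 1.35 (log2, TMM scale) against D0 and that of miR-222 by 0.75 to 1.53, and both were called at all 5 days. With both arms and the hairpin row added together, miR-221 lay between -0.45 and 0.11 and was called at 0 of 5 days, and miR-222 lay between -1.18 and -0.58 and was called at 4 of 5 days as lower. On the TMM scale the rise in CM thus held for the mature 3p sequences and not for the summed alignments to their stems. In CPM the sums rose too. The miR-221 sum took 124 to 256 CPM at D0 and 716 to 1010 CPM at D14. That of miR-222 took 37.8 to 62.3 CPM at D0 and 141 to 187 CPM at D14. The CPM ranges overlapped D0 at D1 for both stems and at D28 for miR-222. The median miRNA in CM also rose with plain library size. In HC the 3p arms, the hairpin rows and the sums all went up on the TMM scale. The hairpin rows were higher by 0.43 to 0.63 for miR-221 and by 0.72 to 1.78 for miR-222. The sums were higher by 0.61 to 1.12 and by 0.78 to 1.75. These rows and sums were all called at 5 of 5 days. In EC the hairpin row of miR-222 (1.606, adjusted p = 0.000137) and its sum (1.145, 0.00238) were called higher at D28 only, and those of miR-221 at no day. In FB the hairpin row of miR-221 was called higher at D3, D14 and D28 and its sum at D1, D3 and D28. Those of miR-222 were called at no day in FB.

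**Figure D4:**
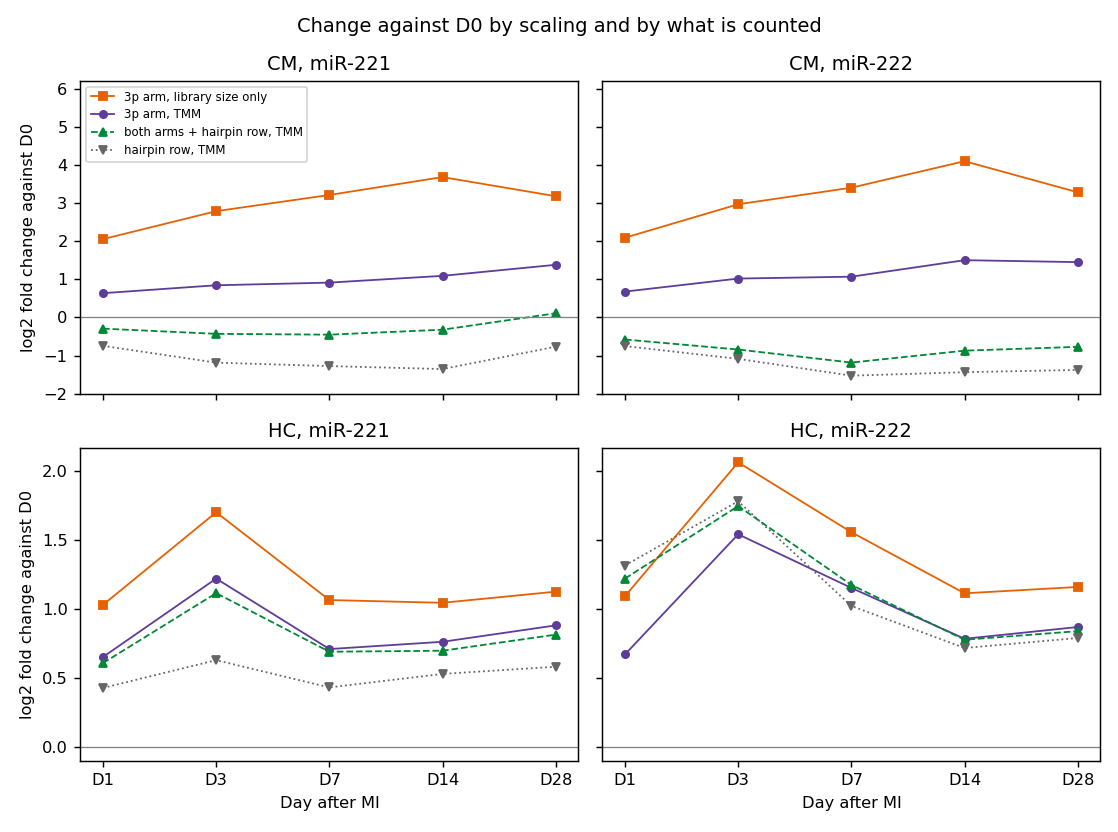
Log2 fold change against D0 of miR-221 (left) and miR-222 (right) in CM (top) and HC (bottom) by day, for the 3p arm with library size or TMM scaling, for both arms plus the hairpin row, and for the hairpin row alone. The sums and the hairpin row are drawn with TMM only. In CM the 3p arm lies above 0 (0.64 to 4.10) and the hairpin row below 0 (down to -1.53), while in HC all 4 lines are above 0.

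In HC, the cell type with the highest levels, both 3p arms rose at all 5 days after infarction and peaked at D3. miR-221-3p held 1240, 1040, 1090 and 1090 CPM at D0 and 1860, 2040, 2550 and 2690 CPM at D1. At D3 it stood at 3900, 3280, 2790 and 4590 CPM and at D7 at 2390, 2150, 2400 and 2430 CPM. It then kept to 2120 to 2450 CPM at D14 and 2320 to 2540 CPM at D28. All libraries after infarction lay above all D0 libraries, and all D3 libraries lay above those of D7. With plain library size the median miRNA in HC rose too, by 0.34 to 0.59 (log2).

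miR-222-3p was highest at D3 as well. It held 171, 166, 109 and 159 CPM at D0, 336, 335, 347 and 370 at D1, and 777, 575, 560 and 813 at D3. It stood at 526, 504, 423 and 463 CPM at D7, and between 312 and 382 CPM at D14 and D28. The D0 libraries were again separate from all others.

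The fitted changes of miR-221-3p against D0 were 0.65 ± 0.14 at D1 (adjusted p = 0.000434), 1.22 ± 0.14 at D3 (6.92e-08), 0.71 on D7 (0.000226), 0.76 on D14 (0.000271) and 0.88 at D28 (2.66e-05). Those of miR-222-3p were 0.67 ± 0.14 (adjusted p = 0.00035), 1.54 ± 0.15 (2.43e-09), 1.15 (3.5e-07), 0.78 (0.000214) and 0.87 (3.22e-05). Both fell from D3 to D7, miR-221-3p by 0.51 ± 0.14 (adjusted p = 0.00673) and miR-222-3p by 0.39 ± 0.13 (0.0308).

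The 5p arms moved in the same direction in HC, unlike in CM. miR-221-5p held 115, 115, 54.7 (from 1 count) and 135 CPM at D0, 188 to 212 at D1, 266 to 321 at D3, 204 to 264 at D7, 181 to 205 at D14 and 182 to 207 at D28, without overlap with D0. The share of all miRNAs separated in this way was not computed, and the median miRNA in HC rose too with plain library size. It was called at D3 (0.73 ± 0.16, adjusted p = 0.000313), D7 (0.56, 0.00478) and D28 (0.43, 0.0486), and its values at D1 (0.30) and D14 (0.35) missed the threshold. miR-222-5p held 2.19, 4.17, 0 and 2.34 CPM at D0, 7.69 to 11.4 at D1 and 5.24 to 14.1 at D3, and was called at D1 (1.32 ± 0.32, adjusted p = 0.0012) and D3 (1.38, 0.000571). From D3 to D7 it fell by 0.84 (0.0314).

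Altogether 15 of 20 comparisons with D0 were called in HC, all higher, and all 4 arms over the 6 days together (73.5% of all 608 miRNAs tested). In either direction 54.3% of miRNAs were called at D1 (25.3% higher), 59% at D3 (30.9% higher), 49.5% at D7 (29.9% higher), 28.1% at D14 (15.3% higher) and 24% at D28 (12.7% higher). Without D0 replicate 3 it was 14 of 20: the changes of miR-221-3p lay between 0.58 and 1.15 and those of miR-222-3p between 0.63 and 1.50, all 10 called, and the call of miR-221-5p at D28 was lost (0.38, adjusted p = 0.0578). That call was also lost when any D28 library or D0 replicate 1 or 2 was left out. Of the contrasts between later days 3 were called in HC, all falls from D3 to D7, where 27.8% of miRNAs were called and 8.88% were lower; from D7 to D28 no arm was called (30.8% of all miRNAs). Leaving out D3 replicate 1 left 1 of these 3 calls.

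Markers in the HC libraries changed over the same days. The cardiomyocyte list fell from 85780 to 132300 CPM at D0 to 38490 to 64740 CPM at D3 and 25980 to 45420 CPM at D7, with 4 of 5 miRNAs lower at D3, 5 of 5 at D7 and none at 0. The leukocyte list rose from 6819 to 10010 CPM at D0 to 18240 to 25730 CPM at D1 and 14670 to 25040 CPM at D3, with 3 of 4 higher and 1 lower at both days, and stood at 8248 to 12120 CPM at D28. The fibroblast list took 4229 to 4533 CPM at D0, 2362 to 3431 CPM at D3 and 11880 to 18740 CPM at D28, with 3 of 3 lower at D1 and D3 and 3 of 3 higher at D14 and D28. The mural list (miR-143-3p and miR-145a-5p) fell from 21690 to 32350 CPM at D0 to 4768 to 7316 CPM at D3, with 2 of 2 lower at every day, and the endothelial list had 2 of 2 lower from D3 on. The part of these shifts in the result was not tested.

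In FB the change was smaller and had a dip at D7. miR-221-3p held 493, 426, 538 and 579 CPM at D0, 741, 704, 903 and 943 at D1, and 991, 1080, 887 and 603 at D3. At D7 it stood at 442, 437, 376 and 397 CPM, at D14 at 581, 578, 614 and 623 CPM and at D28 at 729, 527, 733 and 649 CPM. D1 and D3 lay above D0, whereas the D7 range overlapped D0 through 1 D0 library and lay below every other day after infarction. With plain library size the median miRNA in FB changed by -0.10 to 0.38 (log2).

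miR-222-3p held 165, 151, 136 and 150 CPM at D0, 207, 168, 240 and 204 at D1, and 202, 197, 177 and 145 at D3. It stood at 145, 120, 117 and 115 CPM at D7, between 136 and 149 CPM at D14, and at 197, 148, 188 and 189 CPM at D28. D7 again had the lowest mean. miR-221-5p showed no such dip, with 43.4 to 54.7 CPM at D0 and 51.9 to 70.1 CPM at D7, and no arm but the 3p arms was called in FB.

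Against D0, miR-221-3p was higher at D3 (0.48 ± 0.18, adjusted p = 0.0296) and lower at D7 (-0.52 ± 0.18, 0.0165), and miR-222-3p was lower at D7 (-0.50 ± 0.16, 0.0121). These were the 3 calls of 20, where 7.99% of 563 miRNAs were called at D1, 43% at D3 (22.9% higher), 45.6% at D7 (21.1% lower), 24.7% at D14 and 6.75% at D28. The value of miR-221-3p at D1 was 0.52 ± 0.18 (adjusted p = 0.0661). From D3 to D7 miR-221-3p changed by -0.999 ± 0.18 (adjusted p = 0.000124) and miR-222-3p by -0.43 ± 0.16 (0.0419), and from D7 to D28 they came back by 1.03 ± 0.18 (7.16e-05) and 0.89 ± 0.16 (0.000112). For these contrasts 29.3% of miRNAs were called (15.6% lower) and 40.3% (18.7% higher). Over the 6 days 2 of 4 arms were called, the 3p arms, against 68.2% of all miRNAs.

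The count of calls against D0 in FB depended on single libraries. It was 7 without D0 replicate 4, a library that the study's own plot leaves out, 6 without D3 replicate 1, D3 replicate 2, D14 replicate 4 or D28 replicate 4, 5 without D28 replicate 1 or 2, and 2 without D0 replicate 1, 2 or 3, D3 replicate 3 or D7 replicate 3. With D0 replicate 4 left out, miR-222-5p, at 0 to 51 counts per FB library, gave 4 of the 7 calls. The call of miR-221-3p at D3 was lost without D0 replicate 1, D0 replicate 2 or D3 replicate 3, and that at D7 without D0 replicate 3 or D7 replicate 3. Where the low-count filter was applied anew without D0 replicate 4, both calls at D7 were lost (-0.37, adjusted p = 0.0968, for miR-221-3p and -0.41, 0.0562, for miR-222-3p), and without D0 replicate 2 that of miR-222-3p was lost (-0.39, 0.0591). With plain library size the D7 values were -0.30 and -0.28 (both adjusted p = 0.145). The falls from D3 to D7 and the returns to D28 of miR-221-3p were called in every fit that left out 1 library. The leukocyte list in FB took 222.3 to 235.7 CPM at D0, 177.4 to 332.8 CPM at D3 and 99.6 to 158.2 CPM at D7, with 2 of 4 miRNAs lower at D7. Its part in the dip was not tested.

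In EC no arm was called at any day. miR-221-3p held 384, 354, 386 and 309 CPM at D0, 340, 353, 599 and 532 at D1, 431, 436, 409 and 485 at D3, and 537, 829, 542 and 633 at D7. At D14 it stood at 512, 655, 524 and 738 CPM and at D28 at 711, 193, 156 and 387 CPM. In CPM the D3, D7 and D14 libraries all lay above D0, and the D28 libraries spread on both sides of it. With plain library size the median miRNA in EC changed by -0.03 to 0.36 (log2).

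miR-222-3p held 66.8, 58.2, 61.3 and 54.1 CPM at D0, 73 to 91.2 at D3, 91.3 to 122 at D7, 70.8 to 99.2 at D14 and 21.3 to 116 at D28. It too lay above D0 at D3, D7 and D14. miR-221-5p held 23.3 to 31.3 CPM at D0 and as little as 3.14 CPM, from 2 counts, at D28. miR-222-5p reached at most 19 counts per library, was at 0 in 8 libraries and was not tested in EC.

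The fitted changes lay between 0.03 and 0.53 for miR-221-3p, -0.05 and 0.45 for miR-221-5p and 0.13 and 0.50 for miR-222-3p, with adjusted p of at least 0.206, so that 0 of 15 edgeR comparisons were called and 0 had an unadjusted p under 0.05. Over all miRNAs tested in EC, 0% were called at D1 (17 of 421 with an unadjusted p under 0.05), 17.6% at D3, 22.6% by D7, 14.5% by D14 and 47% at D28. Neither the later contrasts (6.65% of miRNAs called from D3 to D7 and 37.8% from D7 to D28) nor the 6 days together (58.2%) called an arm. Fitting each day with D0 alone, without the D28 libraries in the estimate of the spread, called 4 of 15: miR-222-3p at D3 (0.48, adjusted p = 0.0114) and D7 (0.43, 0.0435), miR-221-3p at D7 (0.46, 0.0305) and miR-221-5p at D3 (0.43, 0.0365). In DESeq2 0 of 15 were called.

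Between cell types, compared as means over the 6 days in a fit of all 96 libraries (712 miRNAs tested), HC stood highest for both 3p arms. The log2 difference of miR-221-3p from HC was -0.86 in CM, -1.52 in EC and -1.21 in FB (SE 0.10 each), and that of miR-222-3p was -1.63, -1.50 and -0.56. All were called. Of the 24 comparisons 20 were called, among 69.4% of miRNAs for CM with EC, 75.7% for CM with FB, 77.7% for CM with HC, 71.8% for EC with FB, 77.7% for EC with HC and 85.7% for FB with HC, so a call was the usual outcome. At D0 alone 16 of 24 were called. There miR-222-3p was lower in CM than in EC (-1.21, adjusted p = 6.88e-06) and did not pass between FB and HC (0.26, 0.356), miR-221-3p passed neither between CM and EC (-0.22, 0.463) nor between CM and FB (-0.45, 0.104), and miR-221-5p was higher in CM than in HC (1.05, 0.00156).

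The order below HC depended on the scaling. With TMM, miR-221-3p was higher in CM than in EC by 0.67 and than in FB by 0.35, whereas with plain library size it was lower in CM, by -0.78 and -1.22. EC stood below FB with TMM (-0.31). miR-222-3p was lower than in FB in both EC (-0.94) and CM (-1.07), and the difference between CM and EC did not pass the test (-0.13, adjusted p = 0.203). miR-221-5p was higher in CM than in EC with TMM (0.92) and lower with library size (-0.55).

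The changes after infarction were then compared between cell types as interaction terms in the same fit. Of 120 differences 39 were called, 13 of 20 for CM against EC, 12 of 20 for CM against FB, 6 of 20 for CM against HC, 0 of 20 for EC against FB, 4 of 20 for EC against HC and 4 of 20 for FB against HC. Of all miRNAs and days 34.6%, 32.5%, 34.5%, 9.55%, 18.4% and 14.6% were called for these pairs. By arm, the calls were 9 of 30 for miR-221-3p, 15 of 30 for miR-221-5p, 15 of 30 for miR-222-3p and 0 of 30 for miR-222-5p.

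miR-222-3p rose more in CM than in EC at all 5 days, by 0.94 to 1.72, of which D1 (0.94, adjusted p = 0.0449) lost its call with the replicate block (0.054), with a block within each day (0.0735), with DESeq2 (0.244) and without a filter (0.433). It also rose more than in FB at 4 days, by 1.32 to 1.92. miR-221-3p rose more in CM than in EC at D3, D14 and D28, by 0.92 to 1.72, and more than in FB at D7, D14 and D28, by 1.07 to 1.69. The change of miR-222-3p at D3 was lower in EC than in HC by a difference of -1.15, and lower in FB than in HC by -1.46. These kept their sign with plain library size.

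The 15 calls of miR-221-5p were its fall in CM against each other cell type at each day, with differences of -1.42 to -2.83. With plain library size all 15 kept their sign and 5 stayed called, 4 of them against HC, 1 against FB and 0 against EC. Without HC D0 replicate 3, 38 of 120 were called, the difference of miR-222-3p between FB and HC at D14 being the one lost among those with HC (-0.88, adjusted p = 0.0836).

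The ratio of the 3p arms also differed between cell types. Log2 of miR-222-3p over miR-221-3p at D0 was -3.49 ± 0.47 (SD, n = 4) in CM, -2.57 ± 0.07 in EC, -1.75 ± 0.25 in FB and -2.83 ± 0.16 in HC. Each pair was compared by an exact two-sided permutation test of 4 against 4 libraries, whose smallest p is 0.0286. CM lay below FB (-1.74), EC below FB (-0.82), HC below FB (1.08 for FB minus HC) and CM below EC (-0.92), each at exact p = 0.0286 (adjusted over 6 pairs, 0.0429). CM and HC (-0.66, exact p = 0.0857) and EC and HC (0.26, exact p = 0.0571) did not pass. These 4 adjusted values sit just under the threshold, and leaving out any EC D0 library left 0 of 6.

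By day 0 of 20 comparisons passed, in a design whose smallest exact p passes an adjustment over 20 only if most comparisons reach it. This count therefore says little about whether the ratio moved. The 4 with the smallest exact p of 0.0286 (adjusted 0.143) were EC at D14 (-0.31), FB at D3 (-0.53), HC at D3 (0.42) and HC at D7 (0.54). In CM, where both 3p arms had their largest relative rise in CPM, the ratio differed from D0 by 0.02 to 0.38, with exact p of at least 0.143. An adjusted p above the threshold in groups of 4 does not show that the ratios were equal.

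**Figure D5:**
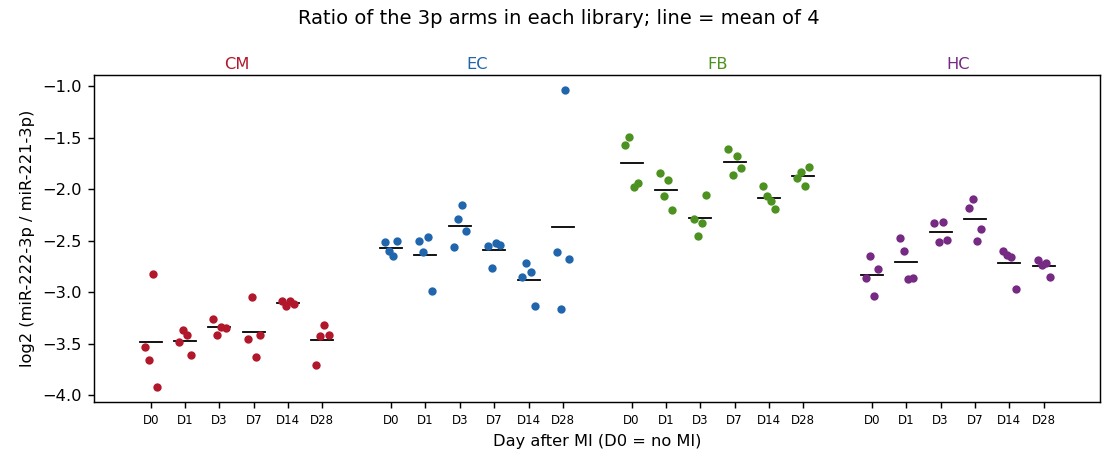
Log2 ratio of miR-222-3p to miR-221-3p counts in each library by cell type and day, with a line at the mean of 4. FB lies highest (mean -1.75 at D0) and CM lowest (-3.49 at D0), and the spread of EC at D28, from -3.17 to -1.04, is the widest.

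Within a cell type the 3p arms varied together. Over its 24 libraries, Pearson's r between log2 TMM levels of miR-221-3p and miR-222-3p was 0.919 in CM, 0.591 in EC, 0.828 in FB and 0.911 in HC, and 0.798, 0.546, 0.747 and 0.646 after the day means were removed. The arms share the library and its scaling factor. The correlation of miR-221-3p with miR-221-5p, on the same TMM levels and with the day means left in, was -0.679 in CM, against 0.599 in EC, 0.481 in FB and 0.854 in HC. In CM miR-221-5p kept to 12.2 to 32.9 CPM, and its fall was seen on the TMM scale only. For this pair no value without the scaling, or with the day means removed, was computed.

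Across the 24 group means, compared with 170 miRNAs of at least 100 CPM on average, the pattern of miR-221-3p was most like those of miR-340-5p (r = 0.864), miR-142a-5p (0.854) and miR-362-5p (0.843), and miR-222-3p came 11th (0.76). The pattern of miR-222-3p was most like those of miR-21a-5p (0.898), miR-484 (0.89) and miR-15b-5p (0.847), with miR-221-3p 6th. The points share libraries and scaling factors, and the values are a description.

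Other miRNAs with known roles in vessels were taken as a list of 25, of which 24 were tested in every cell type. In CM 8 were higher and 3 lower at D1, 14 and 3 at D3, 14 and 6 at D7, 14 and 6 at D14, and 14 and 3 at D28. Of all miRNAs 13.6% were higher and 11.4% lower at D1, 31.8% and 23.3% at D3, and 38.8% and 30.2% at D7. At D14 these shares were 38% and 29.1%, and at D28 they were 29.5% and 24.8%. List medians were 0.92 to 1.28 (log2) against 0.20 to 0.44 over all miRNAs. From D3 on, the 3p arms of miR-221 and miR-222 moved in the direction of 14 of the 24 at each day in CM. The largest changes there were at D14, in miR-15a-5p (4.16), miR-296-5p (3.89) and miR-143-3p of smooth muscle (-3.58).

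In EC 0 were called at D1, and 4 rose and 0 fell at D3, where 15.4% of all miRNAs rose and 2.14% fell. At D28 3 rose and 13 fell, with a list median of -0.81 against 0.07 over all miRNAs, of which 26.8% rose and 20.2% fell. The largest were the smooth muscle miRNA miR-145a-5p at D28 (-2.45), miR-21a-5p at D3 (2.34) and miR-15a-5p at D28 (-2.26). In FB 8 rose and 5 fell at D3 and 5 rose and 8 fell at D7, with medians of 0.11 and -0.41, where 22.9% of all miRNAs rose and 20.1% fell at D3 and 24.5% and 21.1% at D7. miR-155-5p, an inflammatory miRNA, led at D3 (2.87), before miR-20a-5p (2.38) and miR-17-5p (2.27) of the miR-17-92 cluster. In HC 11 rose and 9 fell at D3 (median 0.17, against 30.9% and 28.1% of all miRNAs), with the hypoxia-induced miR-210-3p at 3.07, miR-143-3p at -2.62 and the endothelial miR-126a-3p at -2.43. The change of miR-221-3p in HC at D3, 1.22, was smaller than each of these.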

How the data were processed

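Small RNA-seq libraries of 4 cardiac cell types at 6 time points (96 libraries, 4 per group) were analysed from the count tables the authors deposited, which give raw alignments per mature miRNA and per hairpin for each library. Per the study's methods, adaptors were trimmed with TrimGalore, reads under 18 nucleotides were removed and the rest were counted in the smrnaseq pipeline of nf-core against miRBase release 21 (as stated there; the tables themselves do not name a release). Aligner settings and the pipeline version are not given in the sources used here. Reads with several alignments can inflate the hairpin counts.

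Groups came from the sample labels. The 4 arms were taken by name, and members, gene lists, rules and tests were chosen with earlier results of these data known. Counts were filtered with filterByExpr, scaled by TMM and tested within each cell type with edgeR's quasi-likelihood test (edgeR 4.0.16, R 4.3.3, all 6 days in one model), with Benjamini-Hochberg adjustment over all miRNAs tested and a threshold of 0.05. Cell types and interaction terms were fitted over all 96 libraries. Log2 ratios of 5p to 3p counts (pseudocount 0.5, hairpins whose arms each averaged 10 or more counts) were tested with limma 3.58.1, and the ratio of the 3p arms with exact permutation tests (Python 3.11.15, numpy 2.4.6). CPM is the count scaled to the library's total on mature miRNAs. Standard errors are the log2 fold change divided by the square root of the F statistic. Named besides the members were, in each cell type, the 3 miRNAs of the vascular list with the largest called changes and, for each 3p arm, the 3 most similar patterns. The scripts were tested on simulated data. Alternatives were plain library size, no count filter, DESeq2 1.42.0, each day alone with D0, the hairpin counts, a replicate block, and fits without single libraries. Equal replicate numbers were not taken as pairs. Within a cell type, deviations from the group means had a median correlation of 0.0097 in 240 same-number pairs and of -0.003 in 720 others. A library's total count sets the precision of low values, and reads carried no molecular identifiers, so counting error is a lower limit.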

Additional observations from a re-analysis of the deposited data

Results flagged for a closer look

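Of 192 groups of 4 libraries tested, 11 held a library far from the other 3 by Dixon's test, which by chance flags about 1 group in 20. For levels in CPM these were miR-221-3p in HC at D7 (2150, next 2390), miR-222-3p in EC at D3 (73, next 89.4) and miR-222-5p in EC at D0 (0.733, the others at 0) and at D28 (5.71, next 0.256). For the log2 ratio of miR-221-5p to miR-221-3p they were CM at D28 (-3.40, next -4.46) and EC at D7 (-3.89, next -4.25). For the log2 ratio of miR-222-3p to miR-221-3p they were EC at D7 (-2.77, next -2.56) and HC at D14 (-2.97, next -2.66). For the share of stem alignments on the miR-221 hairpin row they were CM at D3 (36%, next 29.9%), CM at D28 (40.7%, next 29.7%) and HC at D0 (26.6%, next 22.2%).

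The change against D0 differed between 2 cell types in 39 of 120 tests of the difference (edgeR interaction terms, adjusted p under 0.05, n = 4 libraries per group). Values are log2, the first cell type minus the second. For CM minus EC, miR-221-5p differed by -1.42, -2.04, -2.15, -2.21 and -1.78 over the 5 days in order, and miR-222-3p by 0.94, 1.11, 1.02, 1.67 and 1.72. miR-221-3p differed by 1.11 at D3, 0.92 at D14 and 1.72 at D28. For CM minus FB, miR-221-5p differed by -1.77, -2.09, -2.33, -2.75 and -2.08 at the 5 days. miR-222-3p differed by 1.43, 1.88, 1.92 and 1.32 from D3 to D28, and miR-221-3p by 1.69 at D7, 1.12 at D14 and 1.07 at D28. For CM minus HC, miR-221-5p differed by -1.52, -2.41, -2.77, -2.83 and -2.27 at the 5 days and miR-222-3p by 0.92 at D14. For EC minus HC, miR-221-3p differed by -1.06 at D3 and -1.19 at D28, and miR-222-3p by -1.15 and -1.03. For FB minus HC, miR-222-3p differed by -1.46 at D3, -1.61 at D7 and -0.99 at D14, and miR-221-3p by -1.21 at D7. Without the libraries found farthest from their groups, which include 1 of EC D28 and 1 of HC D0, the differences EC minus HC of miR-221-3p were -0.84 at D3 (adjusted p = 0.0512) and -0.67 at D28 (0.19), that of miR-222-3p at D28 was -0.85 (0.0927), and FB minus HC of miR-222-3p at D14 was -0.99 (0.0628), so that these 4 lost their calls.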

How the results depend on the processing

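Limits first. EC D28 and CM D1 libraries spread widely, miR-222-5p was near the count floor outside HC, 1 HC library had 18286 counts, and the mice behind a pool are not told apart. Where a value below changed, the cause was not tested unless the setting itself removed libraries or features.

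Counts of calls against D0 moved beyond 1.5 times as follows. In EC, 0 of 15 became 1 without a count filter, 1 without the 3 libraries that an earlier analysis found farthest from their groups (replicate 3 of EC D28 and of HC D0, and replicate 2 of FB D0), 1 without the libraries the study does not plot, and 4 with each day fitted alone with D0. The single call was in each case miR-222-5p at D3 (2.55, 2.37 and 2.25), an arm that these settings admit because they drop the count filter or apply it anew to fewer libraries, whereas fits that left out 1 library at a time kept the set of miRNAs tested. In FB, 3 of 20 became 7 with library size, 1 without a filter, 7 with DESeq2 and 7 without the unplotted library. Over the 6 days FB went from 2 to 4 with library size. Between later days EC went from 0 to 1 with library size and to 1 without the unplotted library, and HC from 3 to 1 without a filter. The cell types differing in the ratio of the 3p arms at D0 went from 4 to 0 with a pseudocount of 5, to 0 with the replicate block and to 0 without the farthest libraries. With the block the smallest two-sided exact p of 4 pairs is 0.125, so that this 0 was fixed by the design.

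On the TMM scale, directions turned in CM with the hairpin row in place of the arm: miR-221 at D1 to D28 gave -0.74, -1.19, -1.27, -1.35 and -0.77, and miR-222 gave -0.75, -1.09, -1.53, -1.44 and -1.38. With all alignments of the stem, miR-221 gave -0.29, -0.43, -0.45 and -0.32 at D1 to D14, and miR-222 -0.58, -0.84, -1.18, -0.87 and -0.77. In FB at D7 the hairpin rows gave 0.154 and 0.029. With library size, miR-221-5p in CM at D14 was 0.0655, and the differences CM minus EC and CM minus FB became -0.78 and -1.22 for miR-221-3p, -0.55 and -1.51 for miR-221-5p, and -0.91 and -0.56 for miR-222-5p. With DESeq2, CM minus FB of miR-221-5p was -0.0417. miR-222-3p in EC at D28 (0.13) became -0.13 without a filter, -0.0501 without the farthest library, -0.14 without the unplotted library and -0.28 without D28 replicate 1.

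The replicate block left 14 of 20 calls in HC against D0, 2 of 3 between later days in HC and 38 of 120 interactions, with miR-221-5p in HC at D28 at 0.42 (adjusted p = 0.062) and the fall of miR-222-5p in HC from D3 to D7 at -0.80 (0.0553). miR-222-5p in CM at D14, uncalled, turned to -0.0128 with the block, and apart from the ratio above no other call count changed with it. The sources do not say that equal numbers mark the same mice, and across cell types of a day the deviations of same-number libraries had a median correlation of 0.0211 in 144 pairs, against -0.00616 in 432 others. A block of replicate numbers within each day, added after seeing the data, called 20 of 24 differences between cell types and 39 of 120 interactions.

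Leaving out 1 library at a time, calls against D0 ranged from 12 to 16 in CM, 0 to 0 in EC, 2 to 7 in FB and 14 to 19 in HC. Between later days they ranged from 0 to 0 in CM, 0 to 2 in EC, 3 to 4 in FB and 1 to 3 in HC. EC had 2 without D28 replicate 1, and 1 without D7 replicate 3 or 4 or D14 replicate 1 or 2. Over the 6 days they ranged from 3 to 3 in CM, 0 to 1 in EC (1 without D28 replicate 1), 2 to 3 in FB and 4 to 4 in HC. Between cell types they ranged from 20 to 21, interactions from 35 to 43, arm ratios from 2 to 3 (2 also with a pseudocount of 5 or a minimum of 50 counts), ratios of the 3p arms by day from 0 to 0, and between cell types at D0 from 0 to 5. The uncalled miR-222-5p in CM ranged from -0.26 to 1.08 at D7 and from -0.80 to 0.99 at D14, and miR-222-3p in EC at D28 from -0.28 to 0.36.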
